A study of Homo sapiens with 12 samples.

Results

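The Fanconi anaemia and homologous recombination genes are 43 human genes. Some encode the Fanconi core complex with its E2 partner, the FANCI-FANCD2 pair, and BRCA1, BRCA2 and the other mediators of recombination. Further ones encode the RAD54 motors, the end resection factors and the enzymes that take apart recombination intermediates. The rest encode the kinases of the DNA damage checkpoints with the ATR partner ATRIP, and 4 proteins of damaged forks. The 43 genes were chosen by symbol for their function, with earlier results of these data known. FANCB was put among them with the fall in its ribosome density known, so that its density and footprint values are given here as a description. All 43 were among the 15798 genes counted, and all 43 passed the filter on low input counts that left 10663 genes for testing. The data are ribosome profiling of HCT116, a human colorectal cancer cell line, that received DMSO or, for 24 h, 100 nM trametinib, which blocks MEK1 and MEK2, the activators of ERK. Each treatment was carried out in 3 biological replicates, and each replicate gave an input library (randomly fragmented cytoplasmic RNA, which reports mRNA abundance) and a library of footprints (the mRNA fragments that a ribosome protects from RNase I, taken from the monosomal fraction). There were therefore 12 libraries in 4 groups. The cells were one line in one culture condition, and all dishes received cycloheximide, which stalls elongating ribosomes, just before lysis.

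The Fanconi pathway acts on DNA interstrand crosslinks, lesions that tie both strands of the helix together and stop replication forks. The core complex, with FANCL as the ubiquitin ligase and UBE2T as its E2 enzyme, attaches ubiquitin to FANCD2 and FANCI, and the modified pair brings in the nucleases that unhook the crosslink. The break that results is repaired by homologous recombination: its ends are resected to single-stranded DNA, BRCA2 and PALB2 act on it, and the sister chromatid serves as template. Because that template exists only after replication, most of these proteins are known to be made and used in S and G2 phase.

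The input libraries held 2276693 to 2845568 counts and the footprint libraries 10127477 to 19181588. The drug effect was visible in 10 output genes of ERK signalling, such as DUSP6, all 10 of which were lower in both kinds of library, with a median log2 change of -4.74 in the input. Of 10 markers of colorectal epithelium 9 were tested, with summed normalized input counts of 30956 to 46970 in DMSO and 54306 to 66760 under trametinib. LGALS4, the marker not tested, had 1 count in all 12 libraries together. Of 10 stromal, endothelial and blood markers, 3 were tested, and the summed input counts of all 10 were 67.0 to 90.6 in DMSO and 180 to 224 under trametinib, most of that difference in the collagen gene COL3A1 and in VWF. COL1A2, PTPRC and CD3E had at most 1 count in any library. DMSO replicate 1 stood apart from DMSO replicates 2 and 3. It was the lowest DMSO library for 26 of the 43 genes in the input, against 35.2% of all tested genes, and for 33 of 43 in the footprints, against 41.2%. The summed normalized counts of 15 S phase markers were 13682 there and 23632 and 25153 in the other DMSO inputs. Counts of changed genes are therefore also given without it.

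Trametinib lowered the mRNA of most of these genes. In the input, 34 of the 43 were called lower (edgeR quasi-likelihood test, Benjamini-Hochberg adjusted p under 0.05 over all tested genes), where 16.7% of all tested genes were called lower. The median log2 change of the 43 genes was -1.61, and that of all tested genes was -0.00. Of the 34, 29 were at least 2-fold lower, 18 at least 4-fold and 5, RAD51AP1 and EME1 among them, at least 8-fold. The shares of all tested genes at these folds are not given, so nothing is read from these counts. Among the 34, XRCC2, XRCC3, RAD51AP1, RMI2 and EME1 passed the filter on low counts through their DMSO inputs alone. Their calls and changes are therefore a description, here and in the footprints. None of the 43 was called higher, either by edgeR, by its unadjusted p under 0.05 or by DESeq2, where 15.4% of all tested genes were called higher by edgeR. The 3 trametinib inputs lay below the 3 DMSO inputs for 36 genes, a separation seen for 23.3% of all tested genes. The 9 genes that were not called were FANCB, FANCF, FANCL, MRE11, RAD50, NBN, FAN1, ATM and ATR. Without DMSO input replicate 1, 33 of the 34 remained, the exception being MUS81. Together the 43 genes took 0.202% to 0.272% of the counts of a DMSO input and 0.0853% to 0.0963% of a trametinib input. In bulk RNA, fewer cells in the phases that express a gene and less of its mRNA per cell cannot be told apart.

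The footprints of these genes were lower as well, relative to those of other genes. Scaling removes a change in footprints shared by all mRNAs, and the study's polysome profiling found a smaller polysomal share in HCT116 after 24 h of this drug. A gene not called lower here may thus still carry fewer ribosomes. Of the 43 genes, 37, FANCB among them, were called lower, where 25.6% of all tested genes were called lower. The median log2 change was -2.11 against -0.01 for all tested genes. Of the 37, 32 fell at least 2-fold, 22 at least 4-fold and 14 at least 8-fold. Here too the shares of all tested genes at these folds are not given, and nothing is read from the counts. None of the 43 was called higher, by edgeR, by its unadjusted p under 0.05 or by DESeq2, where 23.9% of all tested genes were called higher by edgeR. With scaling to library totals, which moved the median of all genes to 0.164, 4 genes (FANCF, RAD50, NBN and ATM) were called higher, at 0.44 to 0.62. The footprint groups did not overlap, with trametinib lower, for 38 of the genes and for 30.3% of all tested genes. Without DMSO footprint replicate 1, 38 were called lower and 2, FANCF and NBN, were called higher, with log2 changes of 0.68 and 0.46. Both kinds of library together called 33 genes lower, which are 33 of the 34 in the input and 33 of the 37 in the footprints. FANCB, MRE11, FAN1 and ATR were called in the footprints alone, MUS81 in the input alone, and FANCF, FANCL, RAD50, NBN and ATM in neither. Whether a gene called in one kind of library and not in the other differs between them is tested by the ribosome density, given further on.

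**Figure D1:**
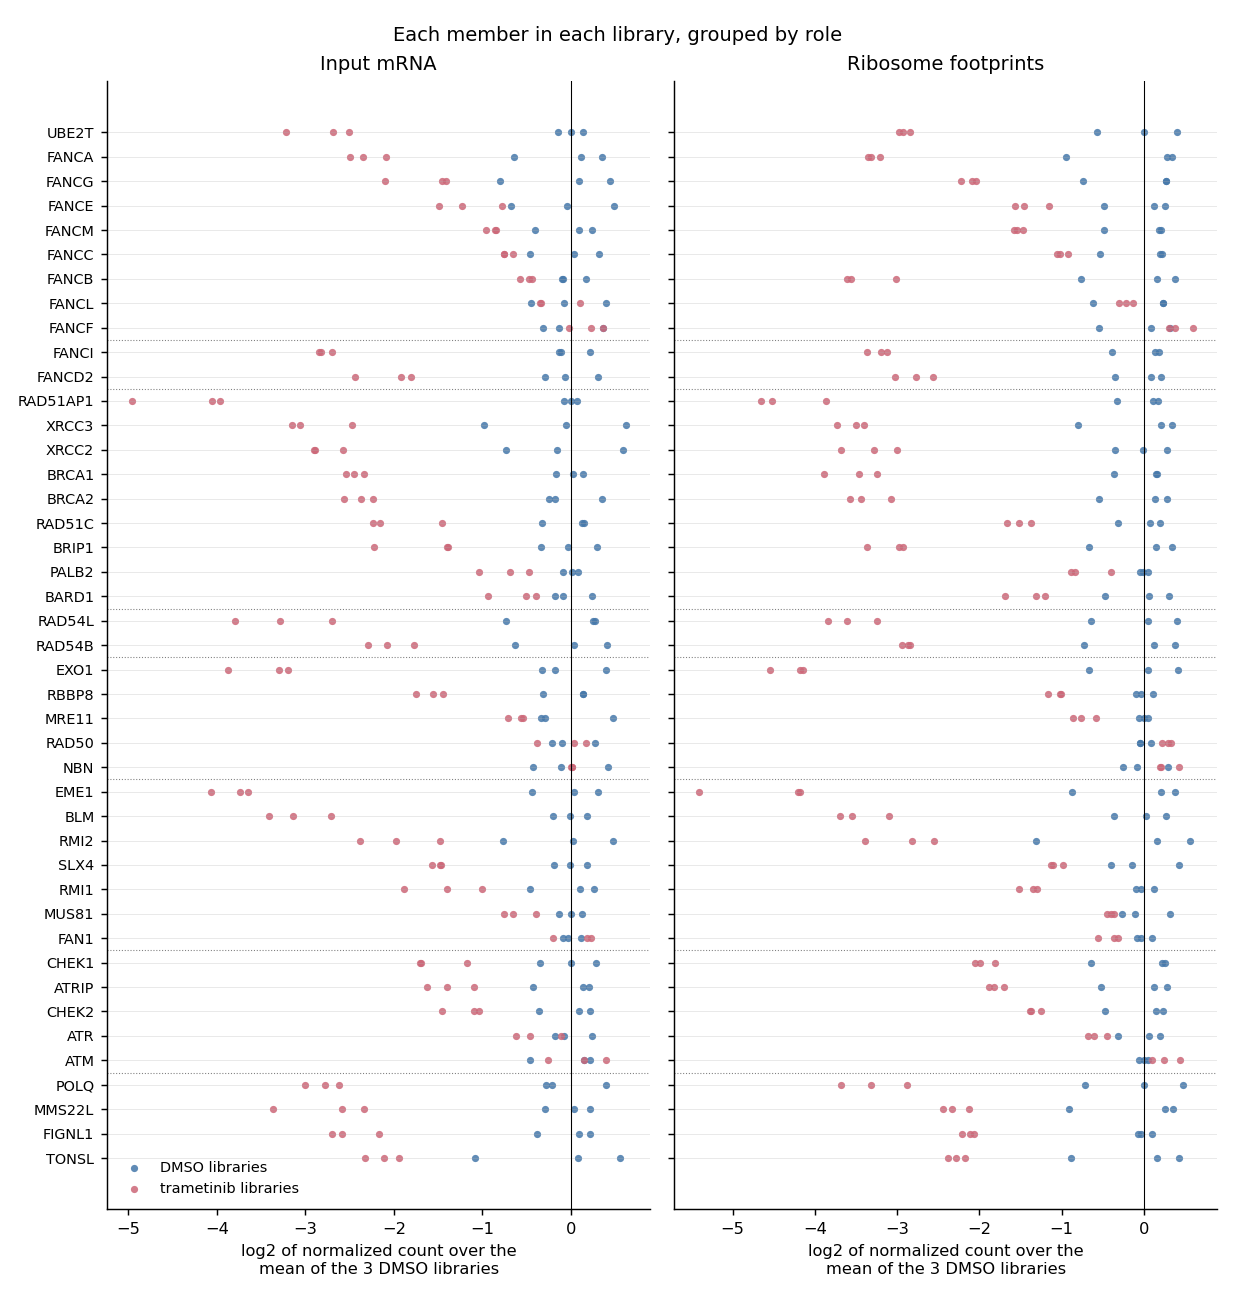
Normalized counts of the 43 genes in every library, as log2 of the value over the mean of the 3 DMSO libraries of the same kind. The horizontal axes are in log2 units, left for input and right for footprints, each dot is one library, and dotted lines separate the role groups. The trametinib dots lie left of the DMSO dots for 36 genes in the input and 38 in the footprints, and one DMSO dot, most often replicate 1, lies left of the other two.

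**Figure D2:**
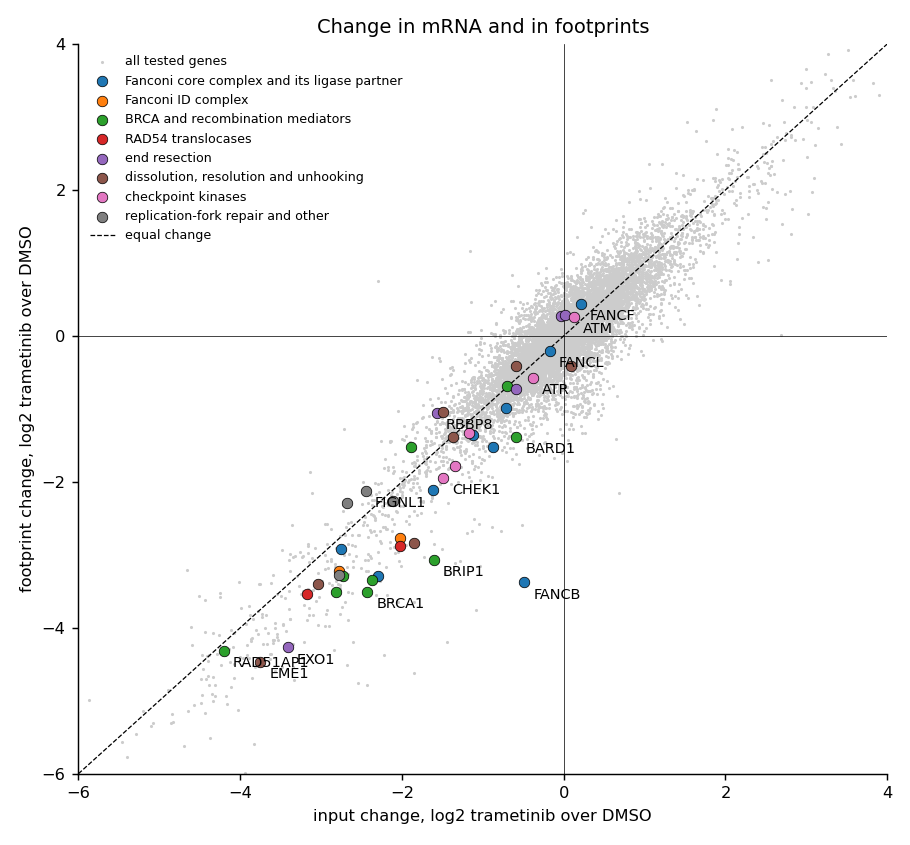
Fitted log2 change in footprints (vertical) against that in input (horizontal) for all tested genes in grey and the 43 genes coloured by role, with the dashed line marking equal change. Most of the 43 lie at the lower left, and FANCB lies far below the line, at -0.49 in the input and -3.38 in the footprints.

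In the core complex and its E2 partner, 6 of 9 genes were lower in the input and 7 of 9 in the footprints. UBE2T, the E2 enzyme that works with FANCL, changed most in the input, by -2.76 (log2, SE 0.22, adjusted p 1.18e-06), from 345, 421 and 382 normalized counts in the DMSO replicates to 67.4, 59.2 and 41.1 under trametinib. The scaffold subunits FANCA and FANCG changed by -2.29 and -1.62 in the input and by -3.29 and -2.11 in the footprints. FANCE, which joins the core to FANCD2, changed by -1.12 and -1.36, and the translocase FANCM by -0.88 and -1.52. FANCC changed least among those called, by -0.71 in the input, from 88.4, 125 and 152 to 72.2, 77.2 and 72.0, and by -0.99 in the footprints. Its input call was lost without any one of 5 of the 6 input libraries (changes of -0.75 to -0.52), by DESeq2 (-0.73) and by limma (-0.65). That of FANCE was lost without DMSO input replicate 3 (-0.79), trametinib input replicate 2 (-1.08) or trametinib input replicate 3 (-0.98). The ligase FANCL and the adaptor FANCF were not called in either assay. The normalized input counts of FANCL were 123, 220.4 and 159 in DMSO and 132, 180.1 and 131 under trametinib, and its footprints were 161, 289.9 and 291 and 226, 201 and 213. Of the alternatives run, FANCL was called only without DMSO footprint replicate 1, at -0.43 in the footprints. FANCF, an intronless gene, had 71.2, 62.7 and 101 input counts in DMSO and 91.5, 77.2 and 100.3 under trametinib, so that the groups overlapped. Thus the E2 enzyme and the scaffold of the core were lower, and the ligase itself lay within the spread of its replicates.

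FANCB (chrX:14690388-14873255, minus strand), the partner of FANCL in the catalytic module of the core, was set apart by its footprints. Its mRNA counts in the input were 75.5, 90.7 and 74.9 in DMSO and 57.8, 59.2 and 54.0 under trametinib. The groups did not overlap, but the change of -0.49 (SE 0.24) was not called. Its footprints were 38.7, 73.0 and 84.8 in DMSO and 5.53, 5.34 and 8.09 under trametinib, a change of -3.38 (SE 0.35). Before normalization these were 105, 112 and 230 footprints in DMSO against 18, 13 and 17 under trametinib, so that the low values rest on few reads.

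Both subunits of the ID complex were lower in both kinds of library. FANCD2 (chr3:10026370-10101932, plus strand), the subunit whose ubiquitination is the central step of the pathway, had 617, 933 and 723 normalized input counts in the DMSO replicates and 139.6, 201 and 216 under trametinib, a change of -2.02 (SE 0.21, adjusted p 1.52e-05). Its footprints went from 546, 805 and 737 to 85.7, 102 and 118, a change of -2.77 (SE 0.18, adjusted p 5.64e-06). FANCI (chr15:89243945-89317261, plus strand), its partner, had 940.5, 1186 and 932 input counts in DMSO and 144, 157 and 141 under trametinib, a change of -2.78 (SE 0.17, adjusted p 1.75e-07). The footprints of FANCI went from 709, 1025 and 1056 to 101, 90.0 and 107, or by -3.22 (SE 0.17). Every trametinib library was far below every DMSO library for both genes.

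All 9 genes of the BRCA and recombination mediator group were lower in the input and in the footprints. RAD51AP1 (chr12:4538798-4560047, plus strand), which stimulates strand invasion, had the largest input change of all 43 genes. It had 159.6, 169 and 152 normalized input counts in DMSO and 9.63, 10.3 and 5.14 under trametinib, a change of -4.20 (SE 0.31). Those trametinib values stand on 10 counts in the 3 libraries together, against 217 in DMSO, which gives a 19.1-fold lower level with an exact 95% interval of 10.2 to 40.5 from counting error alone. In the footprints its counts fell from 281, 380.4 and 398 to 15.4, 13.97 and 24.3, a change of -4.32 (SE 0.23). XRCC3 (chr14:103697609-103715504, minus strand), a mediator of strand exchange, had 43.1, 82.1 and 131 input counts in DMSO and 9.63, 15.4 and 10.3 under trametinib, with a change of -2.82 (SE 0.47). Its DMSO replicates were spread over a wide range, and all lay above the trametinib replicates. The footprints of XRCC3 went from 50.5, 102 and 112 to 8.29, 7.81 and 6.66, a change of -3.51 (SE 0.33). The related XRCC2 and RAD51C changed by -2.73 and -1.89 in the input and by -3.29 and -1.52 in the footprints. XRCC2 had 10 input counts in the 3 trametinib libraries together, and its exact 95% counting interval ran from 3.55-fold to 14.9-fold lower.

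BRCA1 (chr17:43044295-43170245, minus strand), the ligase subunit that promotes resection and brings PALB2 to the break, had 539, 586 and 473 normalized input counts in DMSO and 91.5, 106 and 97.7 under trametinib. The change was -2.43 (SE 0.18, adjusted p 6.97e-07). Its footprints were 257, 364 and 368 in DMSO and 29.8, 22.2 and 34.7 under trametinib, a change of -3.51 (SE 0.21, adjusted p 3.61e-06). BRCA2 (chr13:32315086-32400268, plus strand), the central mediator of recombination, had 280.4, 406 and 269 input counts in DMSO and 67.4, 54.0 and 61.7 under trametinib, a change of -2.37 (SE 0.23, adjusted p 7.87e-06). The footprints of BRCA2 went from 93.6, 165 and 150.4 to 12.6, 11.5 and 16.2, a change of -3.34 (SE 0.26, adjusted p 1.57e-05). The partners that hold these proteins together had smaller fitted changes. BARD1, the obligate partner of BRCA1, changed by -0.59 in the input and -1.39 in the footprints, and PALB2, which bridges BRCA1 and BRCA2, by -0.71 and -0.68. The helicase BRIP1, another BRCA1 partner, changed by -1.61 in the input and -3.07 in the footprints. The input call of BARD1 was lost without DMSO input replicate 2 (-0.46) or any one of trametinib input replicates 1 (-0.69), 2 (-0.64) and 3 (-0.45) and by DESeq2 (-0.60), and that of PALB2 without trametinib input replicate 2 (-0.57).

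The motors RAD54L and RAD54B, which remodel DNA and drive strand exchange, were both lower in both kinds of library. RAD54L (chr1:46246461-46278480, plus strand) had 121, 242 and 239 normalized input counts in DMSO and 14.4, 30.9 and 20.6 under trametinib, a change of -3.17 (SE 0.36, adjusted p 3.09e-05). The footprint counts went from 71.8, 149 and 116 to 9.22, 7.81 and 11.9, a change of -3.54 (SE 0.31, adjusted p 3.44e-05). RAD54B changed by -2.02 in the input and -2.88 in the footprints. DMSO replicate 1 held the lowest DMSO value of both genes in both assays and still lay above every trametinib value.

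The calls divided the end resection group. Of its 5 genes, EXO1 and RBBP8 were lower in the input, and MRE11 joined them in the footprints. EXO1 (chr1:241847967-241895148, plus strand), the exonuclease of long-range resection, had 283, 467 and 311 normalized input counts in DMSO and 24.1, 38.6 and 36.0 under trametinib, a change of -3.41 (SE 0.28, adjusted p 1.68e-06). Its footprints went from 175, 289 and 370.1 to 15.4, 11.9 and 15.7, a change of -4.27 (SE 0.30, adjusted p 8.45e-06). RBBP8, which encodes CtIP, the cofactor that starts resection, changed by -1.57 in the input and -1.06 in the footprints. None of the 3 subunits of the MRN complex, which senses broken ends and tethers them, was called in the input. MRE11, its nuclease, had 58.2, 99.4 and 56.2 input counts in DMSO and 48.1, 48.9 and 43.7 under trametinib, a change of -0.60 that was not called, and its footprints fell by 0.73. NBN, the subunit that binds ATM, had 1039.7, 722 and 581 input counts in DMSO and 782, 787 and 787 under trametinib, so that the trametinib values lay within the DMSO range. The fitted input change of NBN was 0.02 and turned to -0.00065 with median-of-ratios scaling. RAD50, the structural ATPase, had 30.2, 21.6 and 23.4 and 19.3, 28.3 and 25.7 input counts, and 29.1, 29.3 and 32.1 and 36.9, 37.8 and 35.2 footprints. Its footprint groups did not overlap, with trametinib higher, but the change of 0.28 was not called. Of the coding bases of RAD50, 92.5% are also annotated to another symbol in Gencode V44, and reads shared between symbols were not counted, so that its values rest on a small part of the gene and are uncertain. The fraction was 3.5% for FANCG and 0 for the other 41 genes.

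Of the 7 genes that dissolve, cut or unhook recombination and crosslink intermediates, 6 were lower in the input and 6 in the footprints. EME1 (chr17:50373220-50381483, plus strand), the partner of the MUS81 nuclease, had the largest footprint change of the 43 genes. It had 94.9, 132 and 159 normalized input counts in DMSO and 9.63, 10.3 and 7.71 under trametinib, a change of -3.75 (SE 0.36). In the footprints its counts fell from 76.3, 162 and 182 to 7.68, 3.29 and 7.61, a change of -4.47 (SE 0.41). The trametinib inputs held 11 EME1 counts in all against 173 in DMSO, an exact 95% counting interval of 7.56-fold to 28.3-fold lower. MUS81 itself had 261, 218 and 239 input counts in DMSO and 152, 142 and 183 under trametinib, a change of -0.59, and was not called in the footprints (-0.41). Its input call was lost without DMSO input replicate 1 (-0.52), trametinib input replicate 1 (-0.55) or trametinib input replicate 2 (-0.51) and by DESeq2 (-0.60), and it was called in the footprints without DMSO footprint replicate 3 (-0.53). Thus EME1 was called in both assays, and MUS81 in the input alone.

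BLM (chr15:90717346-90816166, plus strand), the helicase that dissolves double Holliday junctions, had 356, 465 and 407 normalized input counts in DMSO and 62.6, 38.6 and 46.3 under trametinib, a change of -3.04 (SE 0.22, adjusted p 6.58e-07). The footprint counts went from 187, 243 and 288 to 28.0, 18.5 and 20.5, a change of -3.40 (SE 0.22, adjusted p 5.82e-06). Its cofactors RMI1 and RMI2 changed by -1.37 and -1.85 in the input and by -1.39 and -2.84 in the footprints, RMI2 on 13 input counts under trametinib against 54 in DMSO. The nuclease scaffold SLX4 changed by -1.49 and -1.04. FAN1, a nuclease that trims crosslinked ends, had 198, 227 and 206 input counts in DMSO and 245, 239 and 183 under trametinib, while its footprints changed by -0.41 (adjusted p 0.0323). That footprint call was lost with scaling to library totals (-0.23) and without any one of the footprint libraries other than DMSO replicate 1 (-0.46 to -0.34).

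The calls also divided the checkpoint group. Of the 5 genes, ATRIP, CHEK1 and CHEK2 were lower in the input, and ATR joined them in the footprints. CHEK1 (chr11:125625163-125676255, plus strand), the effector kinase that slows the cycle when forks stall, had 299.8, 467 and 384 normalized input counts in DMSO and 118, 118 and 169.7 under trametinib, a change of -1.49 (SE 0.22, adjusted p 0.000255). Its footprints went from 486, 879 and 908 to 182, 191 and 216, a change of -1.94 (SE 0.22, adjusted p 0.000168). CHEK2, the effector of ATM, changed by -1.18 and -1.33, and ATRIP, the partner that brings ATR to single-stranded DNA, by -1.35 and -1.78. ATR (chr3:142449007-142578733, minus strand) had 643, 802 and 599 input counts in DMSO and 628, 494 and 445 under trametinib, with groups that overlapped and a change of -0.38 (SE 0.18, adjusted p 0.122). The footprints of ATR went from 465, 659.9 and 605 to 380.0, 359.9 and 422, a change of -0.57 (SE 0.14, adjusted p 0.00972). ATM (chr11:108223044-108369102, plus strand), the kinase of double-strand breaks, had 496, 473 and 309 input counts in DMSO and 561, 471 and 355 under trametinib, a change of 0.12 (SE 0.21, adjusted p 0.695). Its footprints were 159.9, 149 and 155 in DMSO and 183, 166 and 209 under trametinib. They did not overlap, with trametinib higher, but the change of 0.27 (SE 0.13, adjusted p 0.114) was not called.

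All 4 genes of fork repair were lower in both kinds of library. POLQ (chr3:121431431-121545988, minus strand), the polymerase of microhomology-mediated joining, had 272, 434 and 286 normalized input counts in DMSO and 48.1, 41.2 and 54.0 under trametinib, a change of -2.78 (SE 0.25, adjusted p 4.15e-06). In the footprints its counts fell from 60.0, 98.4 and 137 to 7.68, 9.86 and 13.3, a change of -3.28 (SE 0.34, adjusted p 9.92e-05). MMS22L and TONSL, which form one complex that acts at stalled forks, changed by -2.68 and -2.10 in the input and by -2.29 and -2.27 in the footprints. FIGNL1, an ATPase, changed by -2.45 and -2.13.

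The order of the mRNA levels was not the same in the DMSO and trametinib inputs. Levels of different genes were compared as mean normalized counts per kb of coding length, over the 3 libraries of a group. In the DMSO input the highest of the 43 genes were UBE2T at 648, RBBP8 at 399 and NBN at 345, and SLX4 was low, at 14.3. RAD50 has no place in this order, since most of its coding length could not be counted. Under trametinib NBN was highest, at 347, followed by RBBP8 at 134 and FANCL at 131, and UBE2T was at 94.6. Whether neighbours in this order differ was not tested. The median over the 43 genes, with RAD50 taken at its whole coding length, was 95.3 in the DMSO input and 31.6 in the trametinib input.

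The promoters of these genes were searched for short words known from cell cycle genes. RefSeq start sites (GRCh38.p14, windows of 300 bases, 250 before and 50 after each start) were at hand for 38 of the 43 genes, with 50 windows. An E2F word, here TTTCCCGC, TTTCGCGC, TTTGCCGC or TTTGGCGC on either strand, was in 6 of the 50 windows (12.0%), in 5.11% of the windows of all tested genes and in 3.31% of all 35116 windows. The 6 windows belonged to 6 genes, EXO1, FANCA, FANCC, FANCD2, RMI1 and XRCC2. All 6 were lower in the input, as were 30 of the 38 genes with a window, so that nothing is read from it. The CCAAT box (CCAAT on either strand) was in 48.0% of the 50 windows and 34.9% of those of tested genes, and the CHR word TTTGAA, on either strand, in 10.0% and 9.94%. A match is a word in a sequence and not a bound site. The stretches around the E2F words are shown because they hold the element that E2F factors, regulators of S phase genes, are known to bind. Each runs for 30 bases, 5′ to 3′ on the strand of the gene, with the word or its reverse complement in capitals.
EXO1, chr1:241848197-241848226, plus strand: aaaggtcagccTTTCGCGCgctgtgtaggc
FANCA, chr16:89816801-89816830, minus strand: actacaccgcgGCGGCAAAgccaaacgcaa
FANCC, chr9:95317737-95317766, minus strand: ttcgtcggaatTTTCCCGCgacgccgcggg
FANCC, chr9:95317863-95317892, minus strand: ccggggcttccGCGCGAAAccgggaacact
FANCD2, chr3:10026424-10026453, plus strand: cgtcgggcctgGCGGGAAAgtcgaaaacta
RMI1, chr9:83980762-83980791, plus strand: ggcgcgagcgcGCGGCAAAtcgggcgggaa
XRCC2, chr7:152676102-152676131, minus strand: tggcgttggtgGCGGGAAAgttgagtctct
The word began 2 bases before the start in FANCD2, running across it, and 4 bases after it in EXO1, and FANCC held 2 words. The log2 input changes of these genes ran from -3.41 for EXO1 to -0.71 for FANCC.

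The other genes of the pathway were counted from a list. Of 49 further Fanconi and recombination genes, 44 were tested, of which 19 were lower in the input, 1, ABRAXAS1, was higher, and 24 were not called. In the footprints 23 were lower and 21 were not called. Their median log2 changes were -0.49 and -0.59. CLSPN, the mediator between ATR and CHEK1, changed most among the 44, by -3.39 and -3.74. Of 12 tested genes of end joining, the other route of break repair, 7 were lower and 1, TP53BP1, was higher in the input, and 6 were lower in the footprints, with median changes of -0.52 and -0.40. Of 24 tested genes of mismatch and excision repair, 5 were lower and 1, ERCC6, higher in the input, and 11 were lower and 1 higher in the footprints, with medians of -0.08 and -0.37. Whether these lists differ from the 43 genes was not tested.

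Markers of cycling cells moved with the drug as well. All 15 S phase markers were lower in the input and 14 in the footprints, with median changes of -2.70 and -2.95. Their summed normalized input counts were 13682 to 25153 in DMSO and 3886 to 4147 under trametinib. The 14 tested of 15 G2 and M phase markers were all lower in both, with medians of -3.57 and -3.99, and their summed input counts were 19246 to 23347 in DMSO and 1920 to 2219 under trametinib. The 43 genes together had 12394 to 15863 in DMSO and 5072 to 5735 under trametinib. The part of the cell cycle in the lower counts of the 43 genes was not tested.

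**Figure D3:**
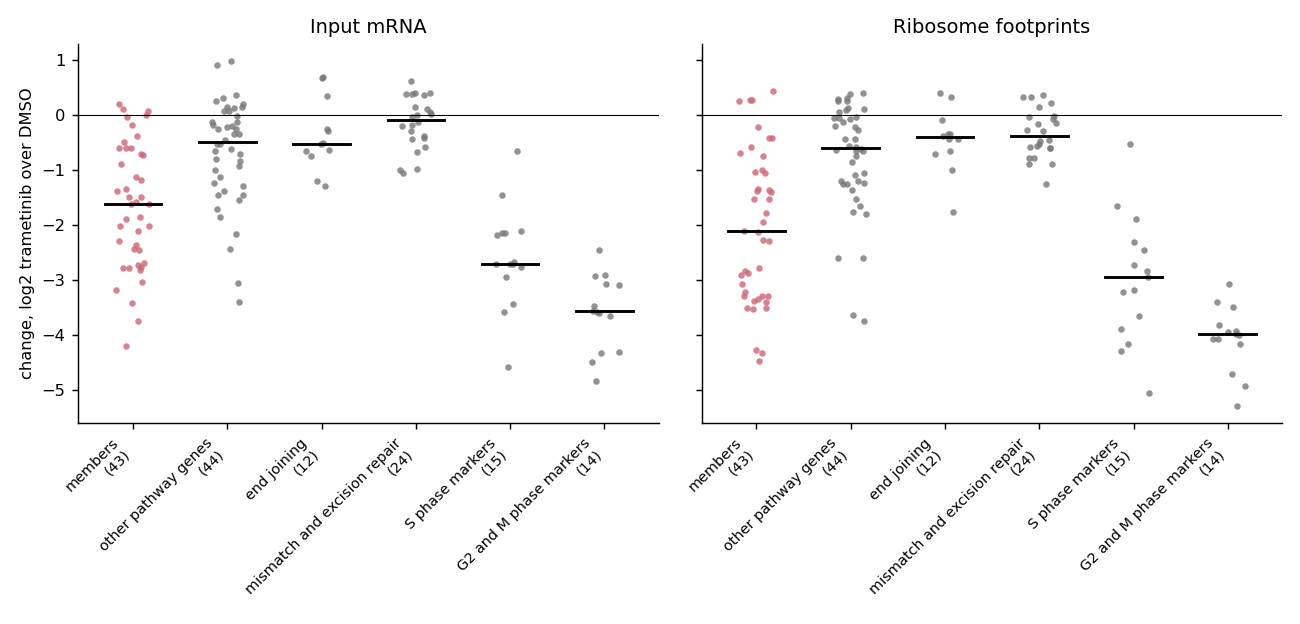
Fitted log2 change of each tested gene in 6 lists, left for input and right for footprints, with the number tested in parentheses and the median as a bar. The median of the 43 genes is -1.61 in the input and -2.11 in the footprints, between the other repair lists, at -0.52 to -0.08 in the input, and the S phase markers, at -2.70.

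Ribosome density asks whether the footprints of a gene changed by more or less than its mRNA, each relative to the other genes. It was tested as the interaction of assay and treatment over all 12 libraries. FANCB was called lower, 1 of the 43 genes, where 1.0% of all tested genes were called lower, and since FANCB was chosen with this known nothing is read from that count. None of the 43 was called higher by edgeR or DESeq2, against 0.0469% of all tested genes by edgeR. With unadjusted p under 0.05, 8 were lower, FANCB among them, and 1, RBBP8, was higher, where 864 of the 10663 tested genes had such a p in either direction. The fitted density change was below 0 for 32 of the 43 genes, FANCB among them, and for 49.9% of all tested genes. The median was -0.34 with FANCB included, against 0.00. With scaling to library totals, which moved the median of all genes to 0.175, the median of the 43 was -0.16 and 25 were below 0. Single libraries moved the median in both directions. It was -0.15 without DMSO input replicate 1, -0.18 without DMSO footprint replicate 2 and -0.16 without DMSO footprint replicate 3. It was -0.22 without trametinib footprint replicate 2, and in these fits 28 to 30 genes were below 0. It was -0.47 without DMSO input replicate 2, -0.45 without DMSO input replicate 3 and -0.48 without DMSO footprint replicate 1. Leaving out any of the other libraries gave -0.33 to -0.28. With a term for each dish in the fit, 3 genes were called lower, FANCA (-0.94) and BRIP1 (-1.43) beside FANCB. Without both libraries of DMSO dish 1, an alternative chosen after seeing the data, the median was -0.32 and 32 genes were below 0. There 4 genes were called lower: FANCA (-1.07), FANCB, BRCA1 (-1.24) and BRIP1 (-1.57). The same 4 were called without DMSO footprint replicate 1 alone, and DESeq2 called FANCB, BRCA1 and BRIP1.

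**Figure D4:**
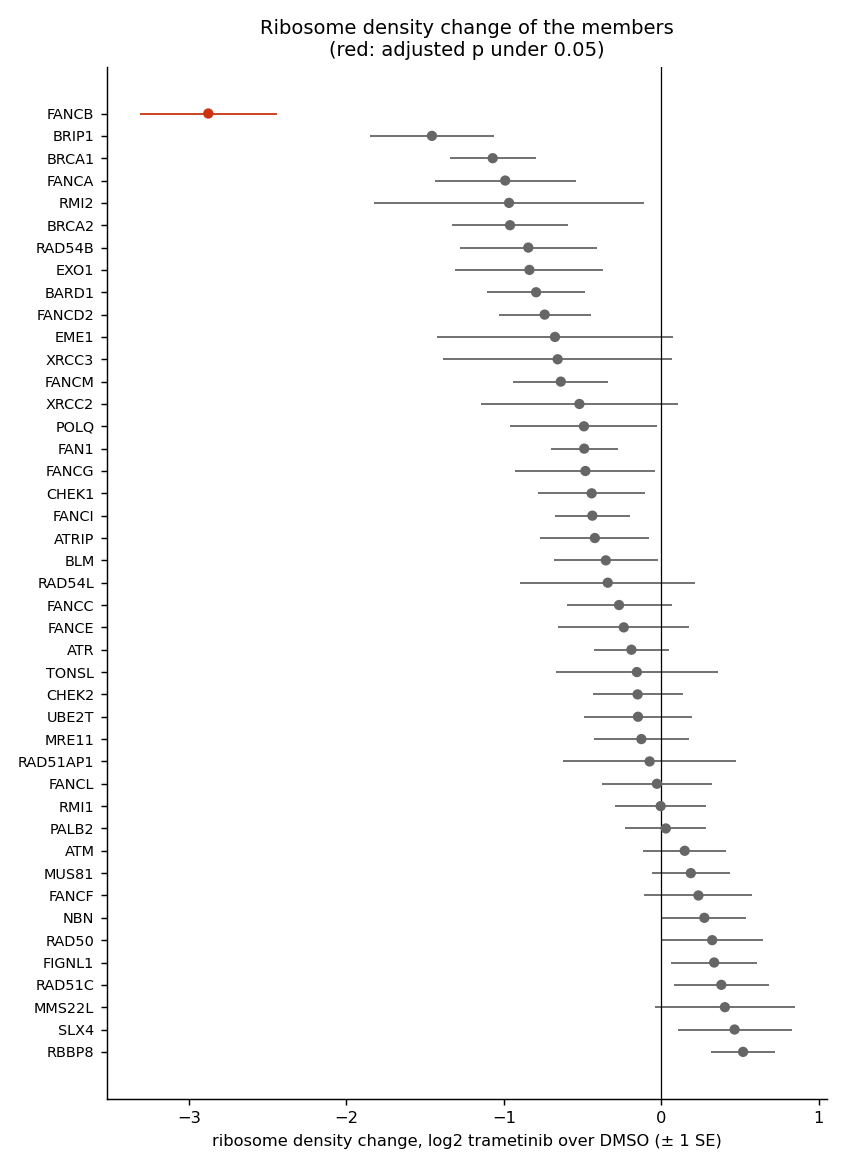
Fitted change in ribosome density of the 43 genes, as log2 of trametinib over DMSO, with bars of 1 SE on either side. The gene called at adjusted p under 0.05 is in red. FANCB lies at -2.88, the next gene, BRIP1, at -1.46, and RBBP8, at the other end, at 0.52.

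The density of a dish was taken as its normalized footprint count over its normalized input count, and is not an absolute rate. Between dishes it compares a gene with the other genes of its libraries, so that a change shared by all mRNAs cancels. For FANCB it was 0.512, 0.804 and 1.13 in the DMSO dishes and 0.0957, 0.0902 and 0.150 in the trametinib dishes, with a fitted change of -2.88 (SE 0.43). The DMSO dishes were spread over more than the trametinib dishes, and the groups did not overlap. For BRCA1 it was 0.477, 0.622 and 0.779 in DMSO and 0.326, 0.210 and 0.355 under trametinib, a change of -1.07 (SE 0.27, adjusted p 0.111). BRIP1 had 0.680, 0.764 and 1.10 and 0.285, 0.215 and 0.523, a change of -1.46 (SE 0.39, adjusted p 0.148). FANCA had 0.563, 0.813 and 0.661 and 0.383, 0.319 and 0.352, a change of -0.99 (SE 0.45, adjusted p 0.591). In BRCA1, BRIP1 and FANCA all 3 trametinib dishes lay below all 3 DMSO dishes, without passing the test. Such a separation was seen for 14 of the 43 genes and for 8.99% of all genes with a density in every dish. FANCB, chosen with its density known, is among the 14. The opposite separation, with trametinib higher, was seen for none of the 43 and for 7.94% of all genes.

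BRCA2 and FANCD2 had fitted density changes of -0.96 (SE 0.37, adjusted p 0.471) and -0.74 (SE 0.29, adjusted p 0.483). The density of BRCA2 was 0.334, 0.407 and 0.559 in DMSO and 0.187, 0.213 and 0.262 under trametinib, and that of FANCD2 was 0.885, 0.863 and 1.02 and 0.614, 0.510 and 0.544, with no overlap in either. Those of CHEK1, 1.62, 1.88 and 2.36 in DMSO and 1.55, 1.61 and 1.28 under trametinib, did not overlap either, with a change of -0.44 (SE 0.34, adjusted p 0.86). The dishes of ATR and ATM overlapped, with changes of -0.19 (SE 0.24) and 0.15 (SE 0.26). RBBP8 had the highest estimate, 0.52 (SE 0.20, adjusted p 0.476), with 0.202, 0.194 and 0.305 in DMSO and 0.331, 0.277 and 0.378 under trametinib, and one DMSO dish within the trametinib range. The standard errors of the density change had a median of 0.34 over the 43 genes, against 0.25 for input and 0.22 for footprints, so that a gene could differ by some way between the assays without being called. Among the other pathway genes 1 of 44, the nuclease DNA2, was called lower in density, at -2.07.

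**Figure D5:**
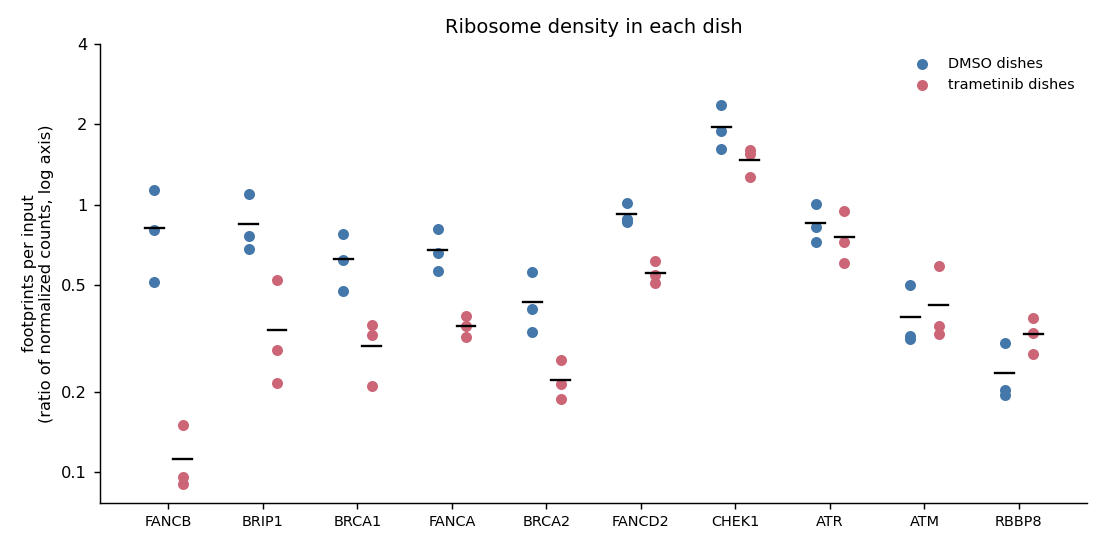
Ribosome density in each dish, as normalized footprint count over normalized input count on a log axis, for FANCB, BRIP1, BRCA1, FANCA, BRCA2, FANCD2, CHEK1, ATR, ATM and RBBP8. Dots are dishes and bars are means of 3. The FANCB dishes lie at 0.512 to 1.13 in DMSO and 0.0902 to 0.150 under trametinib.

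The 5′ end of an mRNA is known to bear on its translation. The bases around the RefSeq start sites of the 4 genes called in any of these density fits are given, with the first transcribed base in capitals. mRNAs that begin with a C followed by an unbroken run of pyrimidines, the 5′TOP motif, are known to depend on mTOR for their translation.
BRCA1, chr17:43125350-43125379, minus strand: gcgcggcgtgagctcGctgagacttcctgg
BRCA1, chr17:43170313-43170342, minus strand: gagagatgctaggctCtttctgtcccgccc
BRIP1, chr17:61863514-61863543, minus strand: agtcgagggggcgggAggcgggaattcgtc
FANCA, chr16:89816633-89816662, minus strand: gggctcgggcgcaggGagccgccgccgggg
FANCB, chrX:14873055-14873084, minus strand: tccgcccggcctcccAggatgcagcgcgct
The FANCB, BRIP1 and FANCA starts were an A, an A and a G, and 1 of the 2 starts of BRCA1 was a C followed by 4 pyrimidines. That BRCA1 start lies upstream of the Gencode span of BRCA1 given above, and the other, within that span, was a G. A C followed by 4 pyrimidines was annotated as start in 5 of the 50 windows of the group (10.0%), those of ATM, BRCA1, FANCE, FANCG and MMS22L. It was annotated in 5.43% of the windows of tested genes, and in 56.8% of 74 windows of cytosolic ribosomal protein genes. These are annotated starts and not starts measured in these cells.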

How the data were processed

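Ribosome profiling was analysed from one table of 12 libraries. After trimming, the authors used Bowtie v1.2.2 to take out rRNA and tRNA reads, mapped what was left to the basic set of Gencode V38 and counted reads of 25 to 35 nt in annotated reading frames of one gene symbol alone, for input as for footprints. The deposited raw counts per symbol were used for all tests. The values printed per library are the normalized counts that the authors deposited, that is, counts over one size factor for each library (a signal with no unit), and these factors could be recomputed for 12 of 12 libraries. The table also holds the authors' own fold changes and p-values from DESeq2 v1.46.0, which were not used. Groups and replicate numbers came from the sample labels.

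A gene entered the tests when 3 or more input libraries held 10 or more of its counts (10663 of 15798). XRCC2, XRCC3, RAD51AP1, RMI2 and EME1 reached 10 counts only in the DMSO inputs, the group where they were high. Their lower calls are given as a description, without adjusted p. Input and footprints were each fitted over 6 libraries with TMM scaling, and density as the interaction of assay and treatment over all 12 with median-of-ratios size factors, by the quasi-likelihood F test of edgeR 4.0.16 (R 4.3.3) with Benjamini-Hochberg adjustment. Each change is the log2 of trametinib over DMSO. Its standard error was taken as its size over the square root of F. Alternatives used DESeq2 1.42.0, limma 3.58.1, other scalings and filters, a replicate block and single libraries left out. The steps were tested on simulated data. The genes and gene lists were chosen with earlier results of these data known. Values in every library are given for the 8 called genes with the largest change in each comparison and for FANCB, BRCA1, BRCA2, FANCD2, ATM, ATR and CHEK1. Other genes of the group are given by role, and genes outside it only for the largest change of a list or where a result turns on them. A further gene named by this rule is not reported here. BRIP1, FANCA and RBBP8 were given densities after their values were seen. UBE2T, FANCC, FANCL, FANCF, MRE11, NBN, RAD50, MUS81 and FAN1 were likewise given values in every library after these were seen.

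By the study's methods, the input aliquot was taken from the lysate that gave the footprints, so that libraries of one treatment and number share a dish. Their deviations from the group means over 7669 genes correlated with Pearson r of 0.816, 0.181 and 0.343 in DMSO and 0.141, 0.0803 and -0.122 under trametinib. Of the 12 libraries, 5 correlated best with the same-numbered library of the other assay. Between the treatments, same-numbered libraries correlated with r of 0.068, 0.0484 and 0.334 in the input and 0.117, 0.133 and 0.294 in the footprints. With 3 libraries in a group, these values do not settle whether the numbers pair the treatments.

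Gene positions are from Gencode V44 and promoter sequences from RefSeq, both on GRCh38. Intervals for low counts are exact 95% binomial intervals on summed counts and cover counting error only. Depth sets their width, as PCR copies were not marked.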

Additional observations from a re-analysis of the deposited data

How the results depend on the processing

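The number of genes called lower ranged from 29 to 34 of 43 in the input over all alternatives (31 by DESeq2, 33 by limma, 29 with a 2-fold minimum) and from 32 to 38 in the footprints. Leaving out single libraries gave 29 to 33 in the input, 36 to 38 in the footprints and 1 to 4 in density, and 0 to 2 called higher in the footprints. The lowest input count, 29, came without trametinib input replicate 2, and the highest density count, 4, without DMSO footprint replicate 1. Called higher in the footprints were 4 genes with library totals and 2 without DMSO footprint replicate 1. Called lower in density were 3 genes by the DESeq2 likelihood ratio test, 3 with the replicate block of a term for each dish and 4 without both libraries of DMSO dish 1, the one alternative chosen after seeing the data. The replicate block changed no other call of the 43 genes, with 34 lower in the input and 37 in the footprints. FANCB, chosen with the fall in its density known, was lower in density in every alternative run, at -3.16 to -2.62 with single libraries left out. These refits of the same libraries describe that value and add no support for it. Alternatives were followed gene by gene for all 43 genes in input and footprints and for 9 of them in density, and there the directions of some uncalled genes turned. The input change of NBN was -0.00065 with median-of-ratios scaling, -0.0043 without a filter and -0.00047 by DESeq2, and -0.15 to 0.28 with single libraries left out, where that of FANCL was -0.36 to 0.072, that of RAD50 -0.16 to 0.12, that of ATM -0.055 to 0.28, and the density change of ATM -0.0055 to 0.32. The cause of these changes was not tested. Depth limits the input most: genes such as XRCC2 and EME1 stand on 10 and 11 counts in the 3 trametinib inputs together.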
